A study of Mus musculus with 8 samples.

Results

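Atoh8 and 8 genes of the bone morphogenetic protein (BMP) pathway, Id1, Id2, Id3, Smad6, Smad9, Bmp4, Bmpr1a and Bmpr2, were followed through RNA sequencing of mouse pancreatic ductal adenocarcinoma cells. They are 9 of the 49315 gene identifiers in the deposited table. The set was built around Atoh8 because its mRNA was lower in the knockout of each line, so the knockout difference of Atoh8 is a description here, and that of the others is given in the same way, with its error and no test. The question put to the other genes is whether the Id genes and the Smad genes are lower beside Atoh8. Lines 6694c2, 2838c3, 6499c4 and 6419c5 were each sequenced once as wild type (WT) and once with C1galt1c1 knocked out (KO), which gives 8 libraries, 4 per genotype. C1galt1c1 encodes Cosmc, the chaperone of the core 1 O-glycan synthase, and cells that lack it carry the truncated Tn antigen. All cultures were grown in high-glucose medium with serum, and the sources used here do not say whether a KO line is 1 clone or a pool. Values are TPM, shares of a library's transcripts corrected for gene length. In such bulk cultures fewer cells of a type and less RNA per cell cannot be told apart.

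BMP ligands such as Bmp4 bind a complex of type I receptors, among them Bmpr1a, and type II receptors, among them Bmpr2. The activated complex phosphorylates Smad1, Smad5 and Smad9, which enter the nucleus with Smad4 and switch on the Id genes and Smad6. Id proteins hold a helix-loop-helix without a DNA-binding region and take E proteins out of action, while Smad6 is an inhibitory Smad that feeds back on the receptors. Atoh8 is a helix-loop-helix transcription factor that responds to BMP signals in several tissues.

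The 300 bases before the annotated start of 5 of the genes are shown because 4 of them, Atoh8, Id1, Id3 and Bmpr1a, had less mRNA in the KO library of every line, and Id2 did not. Smad6 was also lower in every line, but its window overlaps transcribed sequence of other Smad6 transcripts and is not printed. The Id1 and Bmpr1a windows, and that of Bmp4, also lie inside the annotated span of their gene, downstream of another annotated start. Whether they hold exon sequence of other transcripts is not given here. All windows were read from the GRCm39 genome at the start of the canonical transcript in GENCODE vM39, and run 5′ to 3′ on the strand of the gene. Capitals mark GGCGCC, a sequence bound by BMP Smads, and GTCTG on either strand, a Smad box.
Atoh8, chr6:72212603-72212902, minus strand: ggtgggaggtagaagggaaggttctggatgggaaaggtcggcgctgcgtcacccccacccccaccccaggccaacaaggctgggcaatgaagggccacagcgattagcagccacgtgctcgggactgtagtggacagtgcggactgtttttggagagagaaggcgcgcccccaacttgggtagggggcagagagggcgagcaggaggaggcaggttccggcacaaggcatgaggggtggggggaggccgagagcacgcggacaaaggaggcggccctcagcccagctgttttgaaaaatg
Id1, chr2:152577865-152578164, plus strand: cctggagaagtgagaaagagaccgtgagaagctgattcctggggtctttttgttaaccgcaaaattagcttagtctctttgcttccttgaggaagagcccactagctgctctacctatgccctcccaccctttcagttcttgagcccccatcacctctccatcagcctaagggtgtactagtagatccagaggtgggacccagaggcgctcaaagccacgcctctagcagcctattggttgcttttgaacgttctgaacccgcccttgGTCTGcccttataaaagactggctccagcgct
Id3, chr4:135870508-135870807, plus strand: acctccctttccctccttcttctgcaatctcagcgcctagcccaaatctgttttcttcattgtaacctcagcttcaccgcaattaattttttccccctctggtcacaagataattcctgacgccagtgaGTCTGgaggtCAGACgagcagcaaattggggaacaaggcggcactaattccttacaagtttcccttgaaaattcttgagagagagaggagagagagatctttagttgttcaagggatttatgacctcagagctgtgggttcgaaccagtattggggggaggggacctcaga
Bmpr1a, chr14:34224758-34225057, minus strand: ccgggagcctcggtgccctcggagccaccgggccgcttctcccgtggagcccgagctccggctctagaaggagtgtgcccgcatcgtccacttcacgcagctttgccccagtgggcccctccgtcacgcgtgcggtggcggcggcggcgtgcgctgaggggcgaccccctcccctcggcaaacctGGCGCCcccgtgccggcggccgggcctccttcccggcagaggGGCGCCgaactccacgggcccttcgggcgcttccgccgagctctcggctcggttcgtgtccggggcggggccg
Id2, chr12:25147283-25147582, minus strand: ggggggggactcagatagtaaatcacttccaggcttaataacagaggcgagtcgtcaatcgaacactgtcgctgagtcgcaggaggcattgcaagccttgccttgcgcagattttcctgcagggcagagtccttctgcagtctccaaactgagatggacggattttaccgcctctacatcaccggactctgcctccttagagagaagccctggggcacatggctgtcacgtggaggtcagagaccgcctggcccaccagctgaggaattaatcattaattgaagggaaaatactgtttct
GGCGCC was found 2 times before Bmpr1a and in none of the other windows shown, and 10.2% of 21757 promoters of protein-coding genes hold it. Of the windows not shown, those of Bmpr2 and Smad9 held it 1 time each and those of Bmp4 and Smad6 did not. GTCTG, or its reverse complement, was found 2 times before Id3 and 1 time each before Id1, Smad9 and Bmp4, and 47.2% of all promoters hold it. The windows of Atoh8, Smad6 and Id2 held neither sequence. CANNTG, the box of helix-loop-helix factors, occurred 2 times before Atoh8, 3 times each before Id2 and Bmp4 and 1 time each before Smad9 and Bmpr2, and 71.5% of all promoters hold it. A match describes letters in a window, and no match says only that these letters are not there.

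The libraries differ in ways that touch these genes. C1galt1c1 mRNA in the KO libraries stood at 29.5% to 42.4% of WT. Identifiers without a gene name held 12.5% and 9.69% of the TPM in the KO libraries of 6694c2 and 6419c5, against 0.713% to 1.33% in the other 6. The median gene shifted by -0.23, -0.08, -0.11 and -0.16 on the log2(TPM + 1) scale in 6694c2, 2838c3, 6499c4 and 6419c5. Over the 4 lines the median of all genes was -0.15, so estimates below are given as measured and, where stated, relative to this shift. The 12 integrated stress response genes stood at a relative median of 1.57 and 1.97 in 6694c2 and 6419c5, and 15 G2/M genes at -2.97 in 2838c3. The cells carried the keratins Krt8, Krt18 and Krt19 at 2528 to 8257 TPM, as epithelial cells do. Krt7, another keratin, ranged from 21.6 TPM in the KO library of 6694c2 to 1397 TPM in that of 6499c4. Epcam, another epithelial marker, ranged from 1.21 to 44.9 TPM, with 1.35 TPM in WT and 25.1 TPM in KO in 2838c3. Cdh1, an epithelial marker too, went the other way there, from 1249 to 788 TPM, and was lower in the KO library of each line. Endothelial cells express Id1, Smad6 and Atoh8, and 6 endothelial markers summed to 0.259 to 1.22 TPM in WT and 0.272 to 1.29 TPM in KO libraries. The 7 fibroblast markers summed to at most 7.42 TPM. Among the immune markers Cd68 ranged from 5.49 to 28.1 TPM. The part of these differences in the results was not tested.

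Atoh8 (ENSMUSG00000037621, chromosome 6, 72183161 to 72212602 in GRCm39) had less mRNA in the KO library of every line. Its level was 2.51 TPM in WT and 0.565 TPM in KO in line 6694c2. In 2838c3 it was 27.0 and 13.0 TPM, in 6499c4 15.0 and 5.99 TPM, and in 6419c5 95.9 and 41.8 TPM. The KO library was lower each time, yet the 2 genotypes overlapped widely because the lines lie far apart. KO libraries held 22.5%, 48.2%, 39.9% and 43.5% of the WT level, in that order of lines, a mean of 38.5% ± 11.2 (SD, n = 4 lines). The log2(TPM + 1) difference was -1.14 with an SE of 0.14, or -0.99 relative to the median gene, and ran from -1.19 to -0.999 over the lines. This evenness depends on the pseudocount: with 0.1 in place of 1 the difference of 6694c2, where the gene is low, was -1.97. These values chose the gene and support nothing by themselves.

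Of the 8 genes with enough mRNA to enter the fit, 5 were below WT in all 4 lines: Atoh8, Id1, Id3, Smad6 and Bmpr1a. None was above WT in all 4. Among all 12900 genes fitted 18.5% were below throughout and 1.88% above, so the count is read against a broad shift of the KO libraries. Relative to the median gene of each line 3 were lower throughout, Atoh8, Id3 and Bmpr1a, where 6.79% of all genes were. Over all 12900 genes 0 had an adjusted limma p under 0.05 for KO against WT. At an unadjusted limma p under 0.05 7.95% of all genes were lower and 0.86% higher. KO and WT libraries did not separate without overlap for any of the 8, against 1.34% of all genes with KO lower. The median difference of the 8 was -0.49, against -0.15 for all genes. Since the set was chosen on this contrast, nothing is read from these shares.

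**Figure D1:**
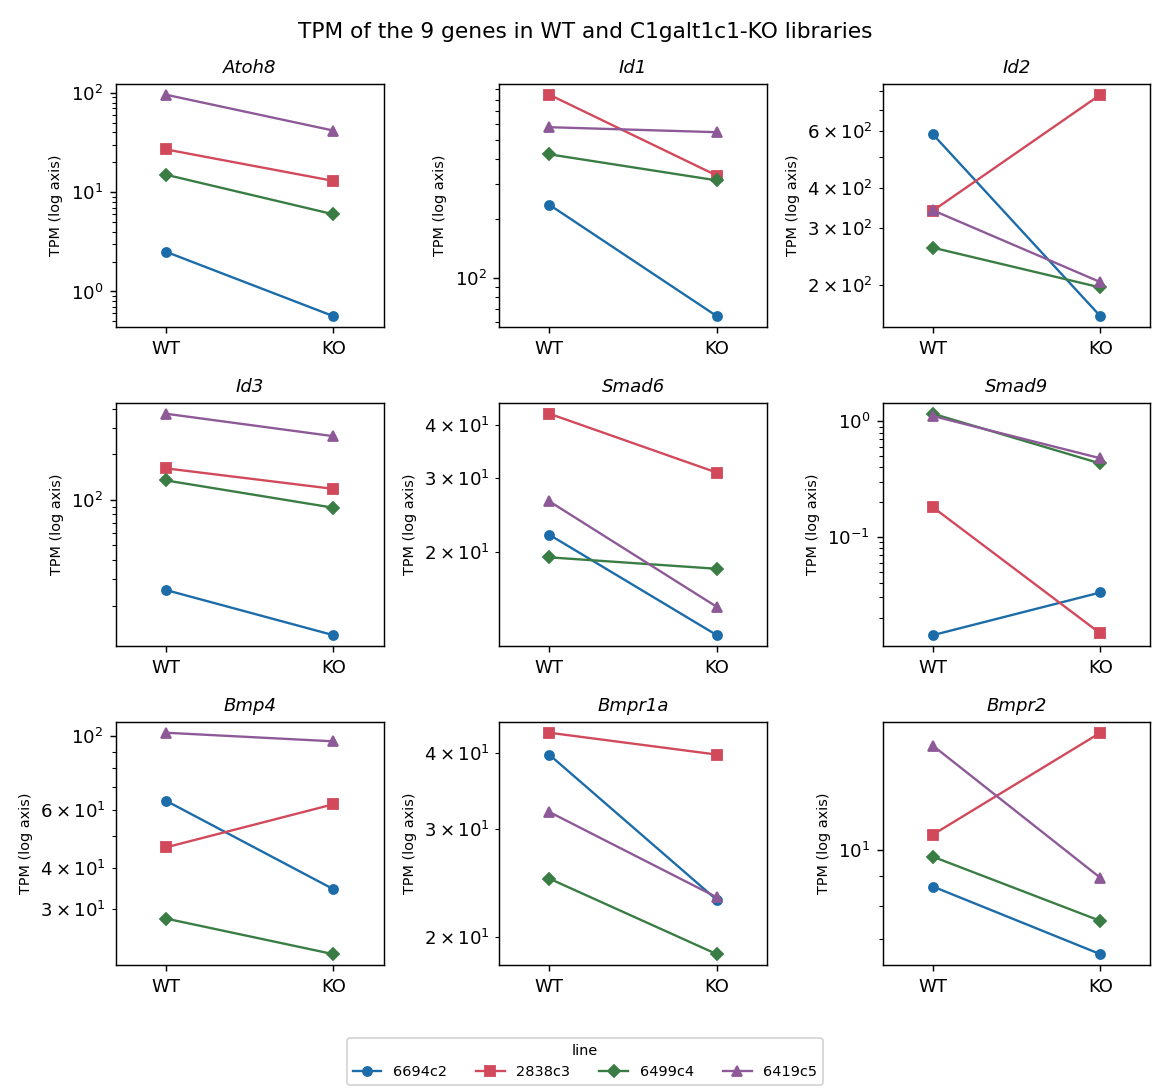
TPM (log axis) of the 9 genes in the WT and KO library of each line, joined by a line, 1 point per library. Atoh8 and Id3 go down in each of the 4 lines, Atoh8 most steeply in 6694c2 (to 22.5% of WT), while Id2 goes from 340 to 780 TPM in 2838c3 and down in the other 3.

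Id1 (ENSMUSG00000042745) was lower in every KO library, by very different amounts. WT and KO levels were 235 and 64.3 TPM in 6694c2 and 847 and 330 TPM in 2838c3. They were 423 and 312 TPM in 6499c4 and 580 and 547 TPM in 6419c5. The first 2 lines thus kept 27.4% and 39.0% of the WT level, and the other two 73.8% and 94.3%. On the log2 scale the mean was -0.93 (SE 0.30), or -0.78 relative to the median gene. In 6419c5 the difference of -0.08 turned to 0.08 with median-ratio scaling and to 0.06 with structural RNA left out, so the direction in that line depends on the scaling.

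Id3 (ENSMUSG00000007872) was lower in every KO library as well, and more evenly. Line 6694c2 had 25.3 TPM in WT and 12.7 TPM in KO, and 2838c3 had 161 and 118 TPM. Line 6499c4 had 134 and 88.6 TPM, and 6419c5 had 370 and 263 TPM. These are 50.3%, 73.2%, 66.0% and 71.1% of the WT level, a mean of 65.1% ± 10.3 (SD, n = 4 lines). The log2 difference was -0.62 with an SE of 0.14, or -0.47 relative to the median gene, and each line stayed below WT under each scaling tried. On the log2(TPM + 1) scale Id3 had the smallest spread between lines after Atoh8, with an SD of 0.22 against 0.09. In percent of WT the order turned, with an SD of 10.3 for Id3 and 11.2 for Atoh8.

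Id2 (ENSMUSG00000020644) did not follow. It was lower in 3 KO libraries, at 160 against 587 TPM in 6694c2, 196 against 261 TPM in 6499c4 and 204 against 341 TPM in 6419c5. In 2838c3 it was higher, at 780 against 340 TPM. This KO library had the highest Id2 level of all 8, and the KO library of 6694c2 the lowest. The mean log2 difference was -0.46 with an SE of 0.44 (-0.31 relative to the median gene), smaller than the spread between lines, and without 6694c2 it was 0.02. In 2838c3, where Id2 was higher in KO, the median G2/M gene stood at -2.97, Epcam was at 25.1 against 1.35 TPM and Cd68 at 28.1 against 8.93 TPM. Cdh1, another epithelial marker, was lower in KO there, at 788 against 1249 TPM. Their part in the Id2 difference was not tested.

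The Id genes were also summed. Id1 to Id4 together held 849, 1349, 819 and 1292 TPM in the WT libraries of 6694c2, 2838c3, 6499c4 and 6419c5, and 238, 1230, 598 and 1015 TPM in the KO libraries. The KO sum was 28.0%, 91.1%, 73.0% and 78.6% of the WT sum, values that move with the scaling of a library. The shares within the pool do not, and they differed between lines. Id2 was the main Id transcript in 6694c2, at 69.2% in WT and 67.2% in KO, and Id1 in 6499c4, at 51.6% and 52.2%. In 2838c3 the order turned, with Id1 going from 62.8% to 26.9% and Id2 from 25.2% to 63.5%. Id3 held 28.7% and 25.9% of the pool in 6419c5 but only 2.98% and 5.37% in 6694c2. Id4 was at most 0.36%.

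**Figure D2:**
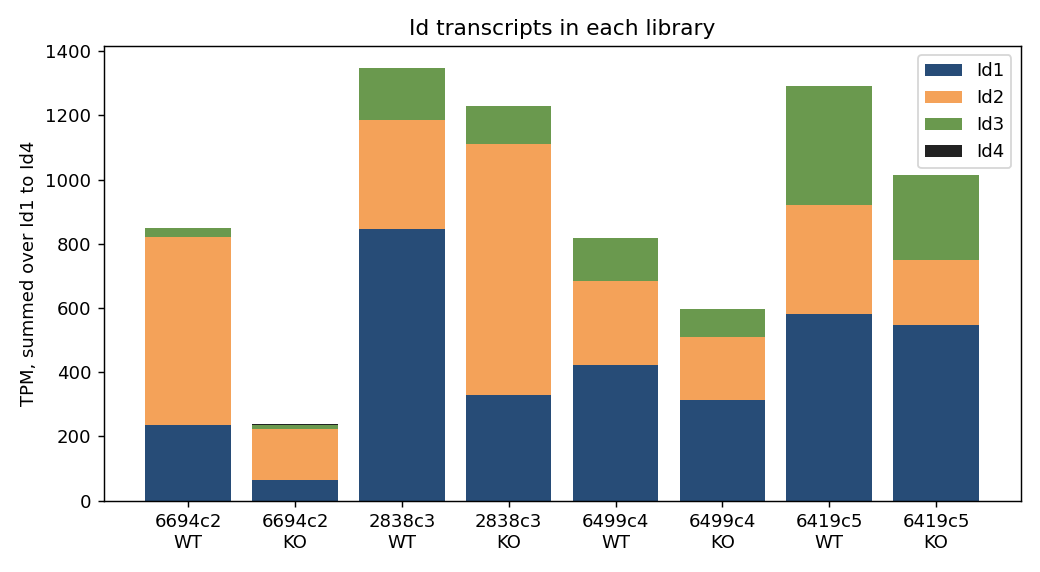
Summed TPM of Id1 to Id4 in each library, as stacked bars from 0. The KO bar is lower than its WT bar in all 4 lines, from 28.0% of it in 6694c2 to 91.1% in 2838c3, where Id1 and Id2 change places.

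The genes of the E proteins that Id proteins bind, Tcf3, Tcf4 and Tcf12, summed to 77.7 to 158 TPM in WT and 58.6 to 152 TPM in KO libraries. On the log2 scale Tcf3, the most abundant, differed by -0.24 (SE 0.15) and Tcf12 by -0.18 (SE 0.16), or by -0.10 and -0.04 relative to the median gene. The ratio of Id to E protein TPM went from 10.9 to 4.05 in 6694c2 and from 5.18 to 3.94 in 6499c4. In 2838c3 it went from 11.9 to 11.5, and in 6419c5 it was 9.56 and 9.55, so in these 2 lines the ratio hardly differed.

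Smad6 (ENSMUSG00000036867), the inhibitory Smad of the BMP branch, was lower in the KO library of every line. Levels in WT and KO were 21.9 and 12.6 TPM in 6694c2, 42.6 and 30.8 TPM in 2838c3 and 26.3 and 14.8 TPM in 6419c5. In 6499c4 they were close, at 19.4 and 18.2 TPM. The mean level was 70.0% ± 17.6 (SD, n = 4 lines) of WT, and the log2 difference -0.52 with an SE of 0.17, or -0.37 relative to the median gene. In 6499c4 the difference of -0.09 became 0.03 with median-ratio scaling. Smad7, the inhibitory Smad shared with the TGF-beta branch and picked once its values were known, went a different way: it was at 44.3 and 21.7 TPM in 6694c2, 41.1 and 86.9 TPM in 2838c3, 21.9 and 19.8 TPM in 6499c4 and 31.1 and 31.4 TPM in 6419c5. Its mean log2 difference was -0.02 with an SE of 0.31, and 0.13 relative to the median gene.

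Smad9, a receptor-activated Smad of the BMP branch, was too low to enter the fit. It reached 1.17 TPM in WT and 0.432 TPM in KO in 6499c4, and 1.11 and 0.480 TPM in 6419c5. In the other two lines it lay at or below 0.181 TPM in both genotypes. In 2 lines the gene was therefore lower in KO at a low level, and in 6694c2 and 2838c3 it was barely detected.

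The ligand Bmp4 and the receptors were less uniform. Bmp4 was at 63.8 TPM in WT and 34.4 TPM in KO in 6694c2, at 28.0 and 21.8 TPM in 6499c4 and at 103 and 96.6 TPM in 6419c5. In 2838c3 it was higher in KO, at 62.2 against 46.1 TPM. Its mean log2 difference of -0.22 (SE 0.22; -0.07 relative to the median gene) was within the spread between lines, and in 6419c5 the direction turned with median-ratio scaling (0.07). Bmp4, Bmpr1a, Bmpr2, Id1, Id2 and Id3 share exon sequence with annotated genes on the opposite strand (1178 bases for Bmp4 with Gm15222, which reached 5.39 TPM), and the sources used here do not settle whether counting used strand. The type I receptor Bmpr1a was lower in each KO library, with 39.8 and 23.0 TPM in 6694c2, 43.3 and 39.8 TPM in 2838c3, 24.9 and 18.7 TPM in 6499c4 and 32.0 and 23.2 TPM in 6419c5. Its log2 difference was -0.43 with an SE of 0.16, or -0.28 relative to the median gene, and in 2838c3 it was -0.01 with median-ratio scaling. The type II receptor Bmpr2 was lower in 3 lines, at 76.1%, 77.2% and 58.7% of WT in 6694c2, 6499c4 and 6419c5, and higher in 2838c3, at 151%. It was the lowest of the receptor and ligand members, between 6.58 and 16.1 TPM.

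By line, the KO library was below WT for 8 of the 8 fitted members in 6694c2, 6499c4 and 6419c5, and for 5 of 8 in 2838c3. Over all genes the shares were 71.1%, 63.5%, 68.6% and 56.1%. Relative to the median gene the counts were 8, 7, 6 and 5 of 8 in 6694c2, 6499c4, 6419c5 and 2838c3, and the median member stood at -0.68, -0.30, -0.44 and -0.20. The 3 members higher in the KO library of 2838c3 were Id2, Bmp4 and Bmpr2. Each line has 1 library per genotype, so these line patterns have no replicate check.

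**Figure D3:**
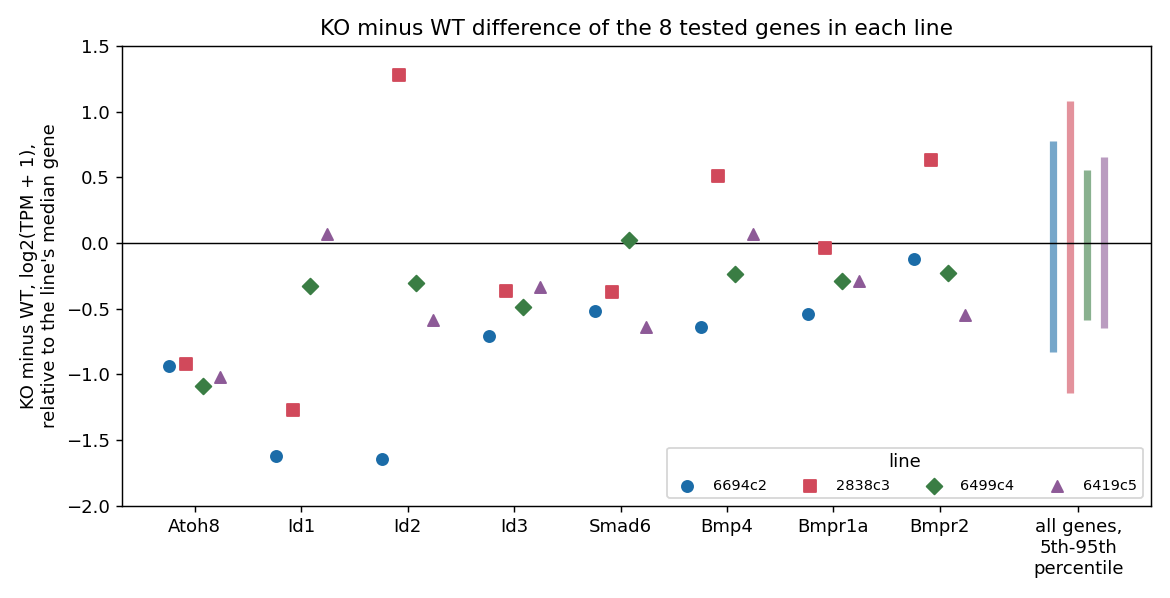
KO minus WT difference on the log2(TPM + 1) scale of the 8 fitted genes, relative to the median gene of each line, 1 point per line. Bars at the right span the 5th to the 95th percentile of all 12900 genes in each line, such as -1.14 to 1.08 in 2838c3. The 4 points of Atoh8 lie together near -1, and those of Id2 reach from -1.65 to 1.28.

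The levels of the genes in the 4 lines were then compared. Each line enters with its WT and KO library, and the limma F-test on the line terms takes its error from the scatter of the KO difference, so a gene with an even difference, such as Id3, has a small error. Atoh8 was chosen for a lower level in the KO of each line, which bears on this scatter, so its levels are described without a test. The order of Atoh8 was 6694c2, 6499c4, 2838c3 and 6419c5 in both genotypes, with the highest line 38.2-fold above the lowest in WT and 73.9-fold in KO. Of the 7 other fitted members 3 differed between lines, Id3 (adjusted p = 0.000362, limma), Bmp4 (adjusted p = 0.0264, limma) and Id1 (adjusted p = 0.0361, limma), where 16.9% of all genes did. Smad6 (adjusted p = 0.0627, limma), Bmpr1a (adjusted p = 0.0945), Bmpr2 (adjusted p = 0.291) and Id2 (adjusted p = 0.444) did not pass. The Id3 call held without each line in turn, with adjusted p (limma) from 0.000275 to 0.0108. The Id1 call was lost without 6694c2 (0.365) and without 6499c4 (0.0642), and the Bmp4 call without 6499c4 (0.184) and without 6419c5 (0.178). With no filter on low values Id1 (0.115) and Bmp4 (0.0803) did not pass either.

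Id3 stood in the same order of lines as Atoh8. It spanned 14.6-fold between lines in WT and 20.6-fold in KO. Line 6499c4 was above 6694c2 by 2.53 on the log2 scale (SE 0.20, adjusted p = 0.00102, limma), a contrast in which 10.3% of all genes passed. Line 2838c3 was not separable from 6499c4 (0.34, SE 0.20, adjusted p = 0.344, limma), where 8.3% of all genes passed. Line 6419c5 was above 2838c3 by 1.17 (SE 0.20, adjusted p = 0.0154, limma), where 9.99% of all genes passed. For Id1 none of these 3 neighbouring pairs passed, with adjusted p (limma) of 0.0654, 0.472 and 0.912. The other members spanned less in WT, from 1.74-fold for Bmpr1a to 3.66-fold for Bmp4, apart from Smad9 with its values near 0.

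Over the 8 libraries Id3 had a Pearson r of 0.97 with Atoh8 and a Spearman rho of 1, the library with more Atoh8 always having more Id3. Pearson's r with Atoh8 was 0.87 for Id1, 0.68 for Bmpr2, 0.58 for Bmp4, 0.45 for Smad6, 0.20 for Bmpr1a and 0.12 for Id2. The libraries share lines in pairs, so these are descriptions without a p. Id2 was closest to another member instead: its r was 0.84 with Bmpr1a, and Smad6 had 0.82 with Bmpr1a. Among 11379 protein-coding genes Id3 ranked as number 7 in likeness to Atoh8. The 5 most alike were Lamp1, which encodes a lysosomal membrane protein, with r = 0.99, and Napepld, Pdrg1, Chfr and Rabgef1, each with r = 0.98. Chfr too had a Spearman rho of 1, so the full match of ranks was not particular to Id3. Id1, with 0.87, ranked as number 457.

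**Figure D4:**
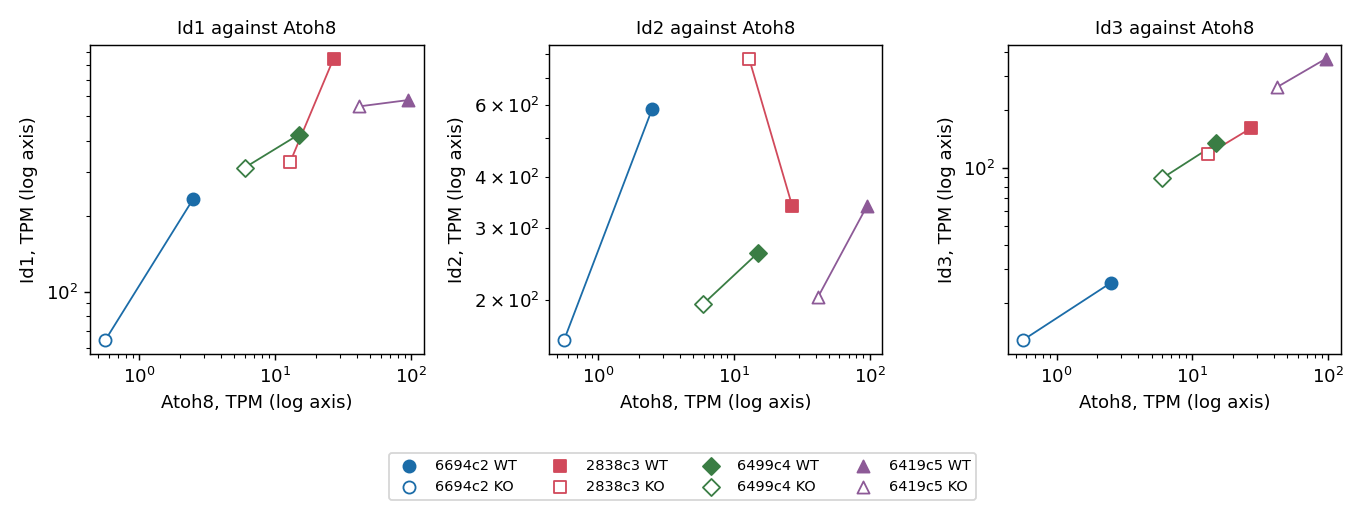
TPM of Id1, Id2 and Id3 against TPM of Atoh8 (log axes), filled symbols for WT and open symbols for KO, joined within a line. Id3 rises with Atoh8 through all 8 libraries (rho of 1), while Id2 in 2838c3 runs against it.

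The rest of the pathway was read from lists by role. Of the 12 other BMP ligand genes 4 were fitted, and 0 passed in either direction, adjusted or not. Bmp2, the most abundant of them, was at 1.12 in 6694c2 and 1.23 in 2838c3 on the log2 scale, but at -1.08 in 6419c5, where it went from 62.1 to 28.8 TPM. In 6499c4 it was at 0.09 TPM in both libraries, and it differed between lines (adjusted p = 0.00409, limma). Bmp8b was lower in all 4 lines (-0.31, SE 0.17; -0.16 relative to the median gene), as 18.5% of all genes were. Its WT and KO levels were near 0 in 6694c2 (0.45 and 0.11 TPM) and in 6419c5 (0.16 and 0.05 TPM). Of 10 other receptors and co-receptors 6 were fitted and 0 passed: the type I receptor gene Acvr1 had a difference of -0.11 (SE 0.17), the type II receptor gene Acvr2a -0.26 (SE 0.21) and the co-receptor gene Neo1 -0.12 (SE 0.19). Relative to the median gene Acvr1 and Neo1 turned to 0.04 and 0.03, and Acvr2a was at -0.11. Of 8 Smad and Smurf genes 8 were fitted and 0 passed, with Smad4, the common partner, at 0.07 (SE 0.17), and Smad2 and Smad3 of the TGF-beta branch at -0.20 (SE 0.13) and -0.14 (SE 0.19). Smad1 and Smad5, which carry the BMP signal and were picked once their values were known, were at -0.13 (SE 0.16) and -0.20 (SE 0.20). Relative to the median gene Smad4 was at 0.22, Smad2 at -0.06 and Smad5 at -0.05, while Smad1 turned to 0.02 and Smad3 to 0.0037.

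Of 15 genes of secreted or membrane antagonists 6 were fitted. At an unadjusted limma p under 0.05 2 were lower, as 7.95% of all genes were, with 0 after adjustment. These were Twsg1, which binds BMP outside the cell, and Nbl1, a secreted BMP antagonist. Twsg1 was lower in all 4 lines, at 63.5 and 37.3 TPM in 6694c2, 103 and 73.6 TPM in 2838c3, 72.1 and 54.9 TPM in 6499c4 and 99.8 and 84.4 TPM in 6419c5 (log2 difference -0.46, SE 0.14, adjusted p = 0.556, limma). Nbl1 was also lower in each line (-0.43, SE 0.16, adjusted p = 0.561, limma). Among all genes 18.5% were lower in all 4 lines. Relative to the median gene Twsg1 was at -0.31 and Nbl1 at -0.28. Fstl3 and Grem1, also picked by their values, each stood out in 1 line. Fstl3, which binds activin and related ligands, went from 12.8 to 81.8 TPM in 2838c3, against 8.76 to 18.1 TPM in the other 6 libraries. Grem1, a BMP antagonist, was at 83.4 and 42.3 TPM in 6419c5 and at most 1.19 TPM elsewhere.

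Of 10 other BMP target genes 2 had enough mRNA to be fitted and 0 passed: Runx2, a transcription factor of bone, at 0.22 (SE 0.22) and Hey1, a transcriptional repressor, at 0.32 (SE 0.27). Relative to the median gene Runx2 was at 0.37 and Hey1 at 0.46. Id4, the fourth Id gene, lay between 0.68 and 1.51 TPM. Of 8 genes of Atonal-related and pancreatic helix-loop-helix factors 0 were fitted, and 5 were listed at 0 in every library, Atoh1 and Atoh7 among them, so Atoh8 was the only one of its 3 Atonal namesakes listed above 0.

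In each of the 6 lists with fitted genes the median was highest in 2838c3. Relative to the median gene the median was 0.60 for receptors, 0.44 for Smad and Smurf genes, 0.43 for ligands and 1.06 for the 2 target genes in 2838c3. In 6419c5 the same medians were -0.20, -0.11, -0.25 and 0.03. As measured, 5 of 6 fitted receptor genes and 7 of 8 Smad and Smurf genes were above WT in 2838c3, a line in which 56.1% of all genes were below it. Of the fitted members Id2 (1.20), Bmpr2 (0.55) and Bmp4 (0.43) were above WT there, and Atoh8, Id1, Id3, Smad6 and Bmpr1a below. The fitted target genes Hey1 (1.02) and Runx2 (0.94) were above WT there too. The difference between lines in these medians was not tested, since each line has 1 library per genotype.

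**Figure D5:**
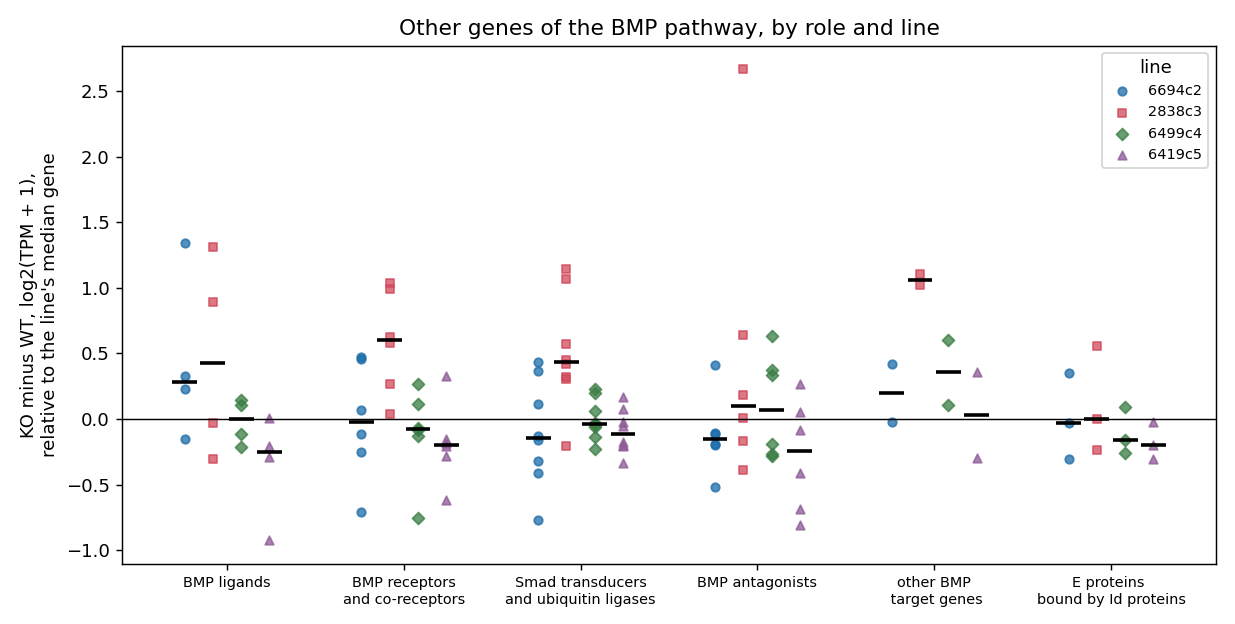
KO minus WT difference on the log2(TPM + 1) scale of the other fitted pathway genes, by role and line, relative to the median gene of each line. Points are genes and black bars list medians, and the bar of 2838c3 is above 0 for receptors (0.60) and Smad and Smurf genes (0.44).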

How the data were processed

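Polyadenylated RNA of 8 libraries was sequenced, and the authors deposited TPM for 49315 identifiers, every library scaled to the same total, so depth is not kept and read counts are unknown. The submitters' processing notes list mm39 as the build, and DESeq2 2.11.40.8, featureCounts 2.1.1, cutadapt 5.1 and STAR 2.7.11b as tools. The gene lengths used are not given in the sources used here. The design text calls the libraries stranded, while the protocols name a kit with no word on strand.

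Names came from GENCODE vM39 (GRCm39), which matched 45505 identifiers. The fit took the 12900 genes that reached 1 TPM in 4 or more libraries. On log2(TPM + 1), R 4.3.3 ran limma 3.58.1 with line and genotype as terms and a variance trend, with Benjamini-Hochberg adjustment over all genes and a threshold of 0.05. Fold changes on this scale understate those of low genes. Per the labels, a WT and a KO library share each cell line, which pairs them, and both deviated together from their group means (r of 0.66, 0.42, 0.79 and 0.75). P-values measure the spread between lines. On simulated KO against WT data with 12900 genes and independent noise, 97% of 100 genes changed by 1 on the log2 scale were recovered, and 100% of 100 changed by 2, with 9 false calls. The simulated noise SD per library was 0.255. The KO difference of Id1 and Id2 had an SD of 0.82 and 1.27 between lines, and that of Bmp4 and Bmpr2 0.54 each. The recovery does not apply to such genes. In the data themselves 0 of 12900 genes were called, so the recovery figures hold for the simulated noise only. Tables and figures were made in Python 3.11.15 (numpy 2.4.6, pandas 2.3.3, matplotlib 3.10.9). Alternatives were a pseudocount of 0.1, no filter, a TPM minimum of 5, median-ratio scaling, structural RNA left out (identifiers without a name and small RNA classes), no variance trend, leaving out each line, and a fit without the line block.

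The genes and lists were chosen with earlier results of these data known. Named genes are the 9 members, of each list the 2 most abundant fitted genes and the one of smallest limma p, and the 5 genes most like Atoh8 by Pearson r over 8 libraries. Outside this rule, and with their values known, Smad1, Smad5, Smad7, Fstl3, Grem1, Id4, Tcf4, Epcam, Krt7, Krt19, Atoh1, Atoh7 and Gm15222 are named.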

Additional observations from a re-analysis of the deposited data

Results flagged for a closer look

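Among 27 groups of 4 values (WT, KO and difference of each of the 9 genes), 2 had 1 value far from the other 3 by Dixon's criterion, which chance meets in about 1 of 20 groups. The log2 difference of Atoh8 in 2838c3, -0.999, lay apart from those of the other 3 lines, which were within -1.19 to -1.17. This depends on the pseudocount. With 0.1 in place of 1 it was -1.05 in 2838c3, close to -1.20 in 6419c5, and -1.97 in 6694c2. These values chose the gene, so this flag is a description only. The Id2 level in the KO library of 2838c3, 780 TPM, lay apart from the other 3 KO libraries, at 160 to 204 TPM.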

How the results depend on the processing

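KO against WT gave 0 genes past the adjusted threshold as reported and under the 11 other settings run, the fit without the line block included. With no replicate block, that is without pairing by line, 176 genes were lower and 34 higher at an unadjusted p under 0.05, against 1026 and 111 with it. With median-ratio scaling they were 346 lower and 292 higher, and with structural RNA left out 591 and 154. The number of genes that differ between lines was 2178, and 871 to 3708 with a line left out, lowest without 6499c4 (871; 903 without 6419c5) and highest without 2838c3. The count of members other than Atoh8 whose lines differ was 3, but 1 with no filter, and 1 to 3 with a line left out, 1 of them without 6499c4. Pearson's r of Atoh8 with Id3 was 0.97, the Spearman rho was 1, r was 0.98 with a pseudocount of 0.1, and 0.97 to 0.99 with a line left out. The Id2 difference of -0.46 turned to 0.0159 without 6694c2. The Atoh8 difference was -1.38 with a pseudocount of 0.1 and -1.02 with median-ratio scaling. The other member differences kept their sign, but some came close to 0. That of Bmp4 was -0.0015 without 6694c2, and that of Bmpr2 was -0.04 without 6419c5. TPM keep no depth, so the precision of low values such as Atoh8 in 6694c2 or Smad9 cannot be given.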
